A study of Mus musculus with 18 samples.

Results

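The macrophage lineage transcription factors described here are 9 genes chosen by symbol, Spi1, Cebpa, Cebpb, Cebpd, Maf, Klf2, Klf4, Nr4a1 and Bhlhe40, of 13598 genes with a value in the series. They were examined by RNA-seq in peritoneal macrophages of C57BL/6 mice that carried TLR4-WT or 1 of 2 point mutants made with CRISPR/Cas9, TLR4-K730R or TLR4-K810R, in which the named lysine of the TIR signaling domain of TLR4 is replaced by arginine in every cell of the animal. The methods describe macrophages lavaged from the peritoneum after an injection of thioglycolate, an irritant that recruits monocytes. Each genotype was left as control or given 100 ng/ml lipopolysaccharide (LPS), the bacterial ligand of TLR4, for 6 h, which gave 6 groups of 3 libraries. The age and sex of the mice are not given. No source says that the 3 libraries of a group came from separate animals, so the p-values measure only the spread between these samples, which may be technical. Values are in FPKM, fragments scaled for length and library size, and each gene was given either the total FPKM of its first exons or that of its last exons, whichever was larger.

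Spi1 encodes PU.1, the ETS-family pioneer factor that opens macrophage enhancers. The C/EBP factors act beside it, with C/EBPα in myeloid progenitors and C/EBPβ and C/EBPδ as factors induced in inflammation. c-Maf, KLF2, KLF4, Nr4a1 (Nur77) and Bhlhe40 work on top of this program: c-Maf promotes Il10 expression and restrains self-renewal, the Krüppel-like factors restrain or redirect inflammatory gene expression, Nr4a1 is an early-response nuclear receptor needed by patrolling monocytes, and Bhlhe40 is a basic helix-loop-helix repressor.

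After 6 h of LPS, Bhlhe40 and Klf2 fell in all 3 genotypes, Klf4 fell in TLR4-WT and TLR4-K730R, and Maf fell in TLR4-K810R, but these Klf4 and Maf calls were lost when the libraries were scaled to a common median ratio, and those of Klf4 in TLR4-WT and Maf in TLR4-K810R also without any one of their 6 libraries. Bhlhe40 dropped from group means of 55.6 to 62.5 FPKM to 18.3 to 21.3 FPKM. Spi1 was the highest of the listed factors in FPKM, which is scaled by length, at 132 to 240 FPKM in every library, a level that comes from its first exons. On the FPKM values without rescaling it passed the test in no comparison, and it was called higher after LPS in all 3 genotypes under that scaling. No factor passed the test between genotypes or in the size of its LPS response.

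Promoter sequences were read from the RefSeq table of GRCm38.p6, which holds 5 of the 9 genes (Cebpa, Cebpb, Klf2, Klf4 and Nr4a1) and not Spi1, Cebpd, Maf or Bhlhe40. The windows of Klf2, Klf4 and Nr4a1 are shown, since these 3 had first-exon events in all 18 libraries, and Klf2 was called lower after LPS in every genotype, Klf4 in TLR4-WT and TLR4-K730R on the FPKM values without rescaling, and Nr4a1 in none on that scale. Each window runs 5′ to 3′ along the gene from 250 bases before the RefSeq start to 50 bases from it, 300 bases in all. Capitals mark 1 searched motif in each window: CTANNNNTAG, the letters bound by MEF2 factors, in Klf2, CACGTG, an E-box of the kind bound by Bhlhe40 and Myc family proteins, in Klf4, and TGCGTCA, a sequence close to the cyclic AMP response element, in Nr4a1.
Klf2, chr8:72318812-72319111, plus strand: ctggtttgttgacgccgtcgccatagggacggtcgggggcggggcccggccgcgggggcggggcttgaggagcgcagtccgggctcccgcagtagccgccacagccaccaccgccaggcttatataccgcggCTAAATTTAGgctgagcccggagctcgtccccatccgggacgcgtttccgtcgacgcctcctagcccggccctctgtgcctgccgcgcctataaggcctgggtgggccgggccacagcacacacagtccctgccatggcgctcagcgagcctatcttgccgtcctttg
Klf4, chr4:55532426-55532725, minus strand: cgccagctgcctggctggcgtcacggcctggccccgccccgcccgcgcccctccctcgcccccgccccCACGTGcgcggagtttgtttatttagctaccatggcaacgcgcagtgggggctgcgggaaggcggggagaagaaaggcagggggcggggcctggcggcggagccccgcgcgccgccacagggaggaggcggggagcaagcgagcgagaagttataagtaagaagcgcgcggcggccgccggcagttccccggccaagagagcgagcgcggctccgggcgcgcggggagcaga
Nr4a1, chr15:101266596-101266895, plus strand: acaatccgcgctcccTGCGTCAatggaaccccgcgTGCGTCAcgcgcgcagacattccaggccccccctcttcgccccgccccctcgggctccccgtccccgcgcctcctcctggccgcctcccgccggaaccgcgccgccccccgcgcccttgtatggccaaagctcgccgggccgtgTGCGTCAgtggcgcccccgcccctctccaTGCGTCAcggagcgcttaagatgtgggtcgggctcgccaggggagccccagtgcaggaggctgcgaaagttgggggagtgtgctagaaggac

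The Klf2 match lay 118 bases before the RefSeq start, and such a match was found in 3.69% of the 32851 promoter windows of the table. The first-exon event of Klf2 began 29 bases upstream of that start. The Klf4 E-box lay 182 bases before the start, in a class of 7.15% of windows, and the Klf4 first-exon event began 22 bases downstream. Nr4a1 held 4 copies of TGCGTCA, at 235, 215, 71 and 42 bases before a start that was also the first base of its most proximal first-exon event. At least 1 copy on either strand was found in 2.12% of windows, and 1 window in the table, that of Nr4a1, held 4 or more.
All motifs were searched on both strands. Each copy overlaps the reverse complement of TGACG, which 20.8% of windows hold, the windows of Klf2 and Klf4 once each. The GC box GGGCGG was present in all 3 windows and in 35.7% of all windows. The core of the PU.1 site, GAGGAA, was held by 28.3% of windows and by none of the 3. The same was true of TTNNGCAA, a C/EBP site that 10.8% of windows hold. The letters TATAAA of the TATA box are in 13.6% of windows and in none of the 3. Near matches, such as TATAAG in the Klf2 and Klf4 windows, were not searched. An NF-κB site, GGGANNNNCC, held by 20.7% of windows, matched in Klf4 alone of the 3, on the opposite strand, 3 bases before the start and overlapping no other match. These matches are descriptions of letters and not of bound sites.

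The table of the 9 factors was incomplete. Spi1, Maf, Klf2, Klf4, Nr4a1 and Bhlhe40 had values in all 18 libraries. Cebpb (ENSMUSG00000056501, chromosome 2 from 167688915 to 167690418), the C/EBP factor induced in inflammation, had no row in any library. Cebpa (ENSMUSG00000034957, chromosome 7 from 35119293 to 35121928) had 1 last-exon row, at 14.5 FPKM in TLR4-WT control replicate 1, and none in the other 17 libraries. Cebpd (ENSMUSG00000071637, chromosome 16 from 15887286 to 15891031) was listed in 3 libraries, at 2.10 FPKM in TLR4-WT control replicate 2, 3.89 FPKM in TLR4-WT LPS replicate 3 and 6.34 FPKM in TLR4-K730R control replicate 3. An unlisted gene may be expressed. The GENCODE transcript of Cebpb has 1 exon, and of 1331 protein-coding genes with such transcripts alone 36, or 2.70%, had a value in any library, against 12247 of 20620, or 59.4%, of the other protein-coding genes. Cebpa and Cebpd each have a transcript of 2 exons and belong to these other genes, and why most libraries did not list them was not tested. With so few listed values, no level is given for Cebpa, Cebpb or Cebpd in a group. Although Cebpd passed the filter on low values, by its 3 listed libraries, its tests are not described and it is not counted below. Cebpb overlaps Tmem189, and Cebpd overlaps Spidr, on the opposite strand.

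The libraries within a group correlated at Pearson's r of 0.961 to 0.975 over the 9707 genes tested. Of 9 macrophage markers, 7 (Adgre1, Csf1r, Cd68, Mertk, Fcgr1, Lyz2 and Mpeg1) had values in all 18 libraries, Cd14 was listed in 1 and Itgam in none. Summed, the macrophage list was 12806 to 15878 FPKM in control and 8273 to 10996 FPKM after LPS, most of it Lyz2 at 5944 to 13291 FPKM, while Fcgr1 of the same list was higher after LPS. Of the T cell markers Cd3e, Cd3d, Cd3g, Cd4 and Cd8a, none was above 0.576 FPKM, and the markers with a row summed to at most 3.66 FPKM for B cells (5 of 7), 6.24 FPKM for mast cells (6 of 7) and 2.79 FPKM for eosinophils (2 of 5). The level of a marker without a row is not known. The T cell list summed to 20.5 to 93.9 FPKM through Il7r, a cytokine receptor gene that other cells also express. The neutrophil list summed to 33.9 to 63.6 FPKM in the control libraries and 187 to 253 FPKM after LPS, of which S100a8, a gene that activated macrophages also express, made up most, while Ly6g, the defining surface protein, was at most 0.644 FPKM.

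**Figure D1:**
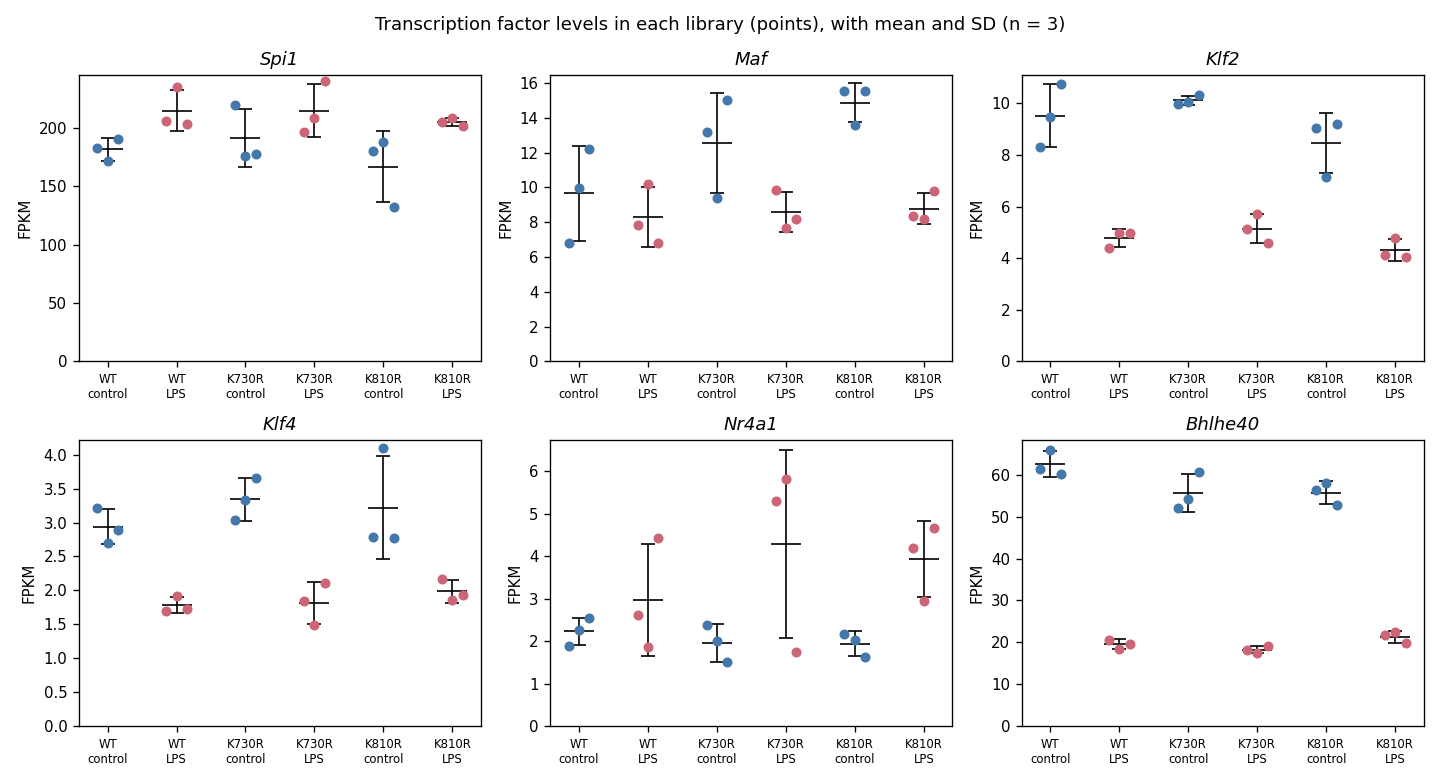
FPKM (vertical axis, from 0) of the 6 factors with values in all 18 libraries, in the 6 groups of genotype and treatment (horizontal axis). Points are libraries, horizontal bars the mean and whiskers the SD of 3 libraries. The control and LPS points of Bhlhe40, Klf2 and Klf4 do not overlap, with Bhlhe40 at 52.1 FPKM or more in control and 22.4 FPKM or less after LPS.

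Bhlhe40 (ENSMUSG00000030103) lies on chromosome 6 from 108660629 to 108666925 of GRCm38, and an antisense gene, 0610040F04Rik, overlaps it. In TLR4-WT it was 61.4, 66.0 and 60.1 FPKM in control and 20.7, 18.4 and 19.7 FPKM after LPS. In TLR4-K730R the control libraries held 52.1, 54.2 and 60.6 FPKM and the LPS libraries 18.2, 17.6 and 19.1 FPKM. In TLR4-K810R they held 56.4, 58.0 and 52.7 FPKM and then 21.6, 22.4 and 19.8 FPKM. Every LPS library was far below every control library, and the 3 genotypes kept to the same 2 bands. On the log2(FPKM + 1) scale, which understates changes of low genes, Bhlhe40 fell by 1.63 ± 0.0927 (SE) in TLR4-WT (adjusted p = 1.11e-09, limma), and in the TLR4-K730R and TLR4-K810R macrophages by 1.55 and 1.35 (adjusted p = 1.64e-09 and 9.29e-09). The control means were 3.19, 3.04 and 2.62 times the LPS means. In bulk samples, fewer cells that express a gene and less RNA per cell cannot be told apart.

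Klf2 (ENSMUSG00000055148, chromosome 8 from 72319033 to 72321656), which restrains NF-κB-dependent gene expression in monocytes, followed the same pattern at a lower level. Its TLR4-WT control libraries held 8.31, 9.48 and 10.8 FPKM and its LPS libraries 4.39, 4.97 and 4.97 FPKM. In TLR4-K730R it was 9.96, 10.1 and 10.3 FPKM in control and 5.11, 5.72 and 4.58 FPKM after LPS, and in TLR4-K810R 9.06, 7.14 and 9.21 FPKM and then 4.11, 4.79 and 4.03 FPKM. The lowest of the 9 control values, 7.14 FPKM, was above the highest of the 9 LPS values, 5.72 FPKM. Klf2 fell by 0.86 ± 0.125 (SE) on the log2 scale in TLR4-WT (adjusted p = 3.59e-05), by 0.86 in TLR4-K730R (adjusted p = 3.44e-05) and by 0.83 in TLR4-K810R (adjusted p = 6.00e-05). The control means were 1.99, 1.97 and 1.97 times the LPS means.

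Klf4 (ENSMUSG00000003032, chromosome 4 from 55527143 to 55532466), a factor of monocyte differentiation and alternative activation, was near the lower end of what was tested. In TLR4-WT it was 3.21, 2.70 and 2.90 FPKM in control and 1.70, 1.92 and 1.73 FPKM after LPS. In TLR4-K730R it was 3.03, 3.34 and 3.66 FPKM and then 1.84, 1.498 and 2.11 FPKM. In TLR4-K810R it was 2.79, 4.09 and 2.77 FPKM and then 2.17, 1.86 and 1.93 FPKM. No LPS library reached the lowest control library, 2.70 FPKM. The fall of Klf4 was 1.65 times by the means in TLR4-WT and 1.84 times in TLR4-K730R, with adjusted p = 0.00847 and 0.00164 from limma. In TLR4-K810R the log2 difference was -0.48 ± 0.141 (SE), of like size, and missed the threshold (adjusted p = 0.0117). The TLR4-WT call was lost without each of its 6 libraries in turn (log2 differences from -0.54 to -0.45, adjusted p from 0.0133 to 0.0367), and the TLR4-K730R call without LPS replicate 2 (-0.54, adjusted p = 0.0101).

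Maf (ENSMUSG00000055435), encoding c-Maf, lies on chromosome 8 from 115682942 to 115707794 and overlaps the antisense gene Gm15655. In TLR4-K810R it was 15.5, 13.6 and 15.5 FPKM in control and 8.35, 8.21 and 9.78 FPKM after LPS. In TLR4-K730R the control libraries held 13.2, 9.39 and 15.1 FPKM and the LPS libraries 9.88, 7.67 and 8.20 FPKM. In TLR4-WT they held 6.81, 9.94 and 12.2 FPKM and then 7.83, 10.2 and 6.81 FPKM. After LPS all 3 genotypes lay between 6.81 and 10.2 FPKM, whereas the control libraries ran from 6.81 to 15.5 FPKM, and control and LPS overlapped in TLR4-WT and TLR4-K730R and not in TLR4-K810R. Maf fell by 0.70 ± 0.197 (SE) on the log2 scale in TLR4-K810R (adjusted p = 0.00975, limma), and the call was lost without each of its 6 libraries in turn (-0.77 to -0.66, adjusted p from 0.0146 to 0.0345). The log2 difference was -0.48 in TLR4-K730R (adjusted p = 0.0542) and -0.18 in TLR4-WT (adjusted p = 0.467), where it was -0.39 without control replicate 1 and -0.01 without control replicate 3.

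Spi1 (ENSMUSG00000002111, chromosome 2 from 91082390 to 91115756) was 183, 171 and 190 FPKM in TLR4-WT control and 206, 235 and 204 FPKM after LPS. In TLR4-K730R it was 220, 176 and 178 FPKM and then 196, 208 and 240 FPKM, and in TLR4-K810R 180, 188 and 132 FPKM and then 205, 209 and 202 FPKM. The LPS libraries lay above the control libraries in TLR4-WT and TLR4-K810R and among them in TLR4-K730R. The log2 differences were 0.24 (95% interval -0.04 to 0.52, adjusted p = 0.154), 0.17 (-0.12 to 0.45, adjusted p = 0.310) and 0.31 (0.03 to 0.60, adjusted p = 0.0744) in TLR4-WT, TLR4-K730R and TLR4-K810R. The last of these rests on control replicate 3 at 132 FPKM, without which it was 0.15 (adjusted p = 0.364). In TLR4-K730R it was 0.27 without control replicate 1 (adjusted p = 0.138) and 0.09 without LPS replicate 3 (adjusted p = 0.657).

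The 2 ends of Spi1 could not be compared. Its one last-exon event listed in all 18 libraries, from 91089814 to 91090310, held 0.214 to 9.49 FPKM. On this plus-strand gene it lies upstream of the first exon at 91096096, so it cannot end transcripts that start there. No last-exon row lay nearer the end of the gene at 91115756. The level and rank of Spi1 therefore rest on its first exons alone. Spi1 has a pair of first-exon events. The downstream event, which starts at 91096096, carried most of the value in 17 libraries, and the upstream event at 91082390 was 0.268 to 9.53 FPKM there. In TLR4-K730R control replicate 1 the upstream event was 116 FPKM, 52.6% of the first-exon sum, and the downstream event was 104 FPKM. The other 2 control libraries of that genotype held 9.53 and 2.37 FPKM upstream and 167 and 176 FPKM downstream. One library thus stood apart in where its Spi1 FPKM was placed, and its part in the group values was taken up above by leaving it out.

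**Figure D2:**
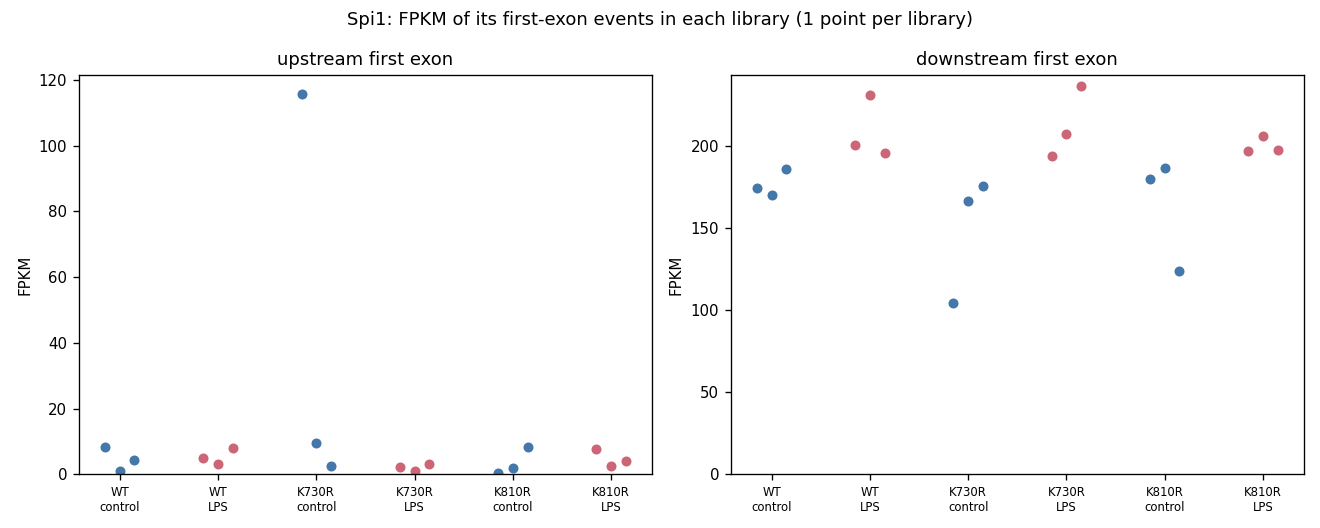
FPKM (vertical axes, from 0) of the upstream (left) and downstream (right) first-exon events of Spi1 in each library of the 6 groups (horizontal axes), 1 point per library. TLR4-K730R control replicate 1 is at 116 FPKM upstream, and the other 17 libraries are at 9.53 FPKM or less.

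Nr4a1 (ENSMUSG00000023034, chromosome 15 from 101254269 to 101274795) varied widely between replicates after LPS. In TLR4-WT it was 1.90, 2.27 and 2.54 FPKM in control and 2.62, 1.86 and 4.42 FPKM after LPS. In TLR4-K730R it was 2.39, 1.995 and 1.501 FPKM and then 5.30, 5.81 and 1.75 FPKM, so that 2 LPS libraries were high and the third lay among the controls. In TLR4-K810R it was 2.18, 2.03 and 1.62 FPKM and then 4.19, 2.94 and 4.67 FPKM, with no overlap. The log2 differences were 0.25 (95% interval -0.38 to 0.88, adjusted p = 0.521), 0.74 (0.11 to 1.37, adjusted p = 0.0504) and 0.73 (0.10 to 1.36, adjusted p = 0.0602) in TLR4-WT, TLR4-K730R and TLR4-K810R. The TLR4-WT value was 0.00 without LPS replicate 3 and 0.46 without LPS replicate 2. Without TLR4-K730R LPS replicate 3 the second of these was 1.16 and passed the threshold (adjusted p = 0.00122). Of its 3 first-exon events, the one whose promoter is printed above was listed in all 18 libraries, at 0.771 to 5.53 FPKM, while the most distal was at most 1.35 FPKM and the third was listed in 2 libraries.

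Of the 6 factors with values in all libraries, 3 were lower and 0 higher after LPS in each genotype at an adjusted p below 0.01 (limma). The background was broad: 23.9% of all 9707 tested genes were lower and 10.4% higher in TLR4-WT, with 26.5% lower and 9.32% higher for the K730R mutant and 19.7% lower and 9.08% higher for the K810R mutant. At an unadjusted p below 0.05, 3, 5 and 6 of the 6 factors differed in the 3 genotypes, against 5255, 5378 and 4705 of all genes tested. The median log2 difference over all genes was -0.28, -0.36 and -0.26, so a gene at 0 on this scale was above most others. Relative to that shift Bhlhe40 was lower by 1.35, 1.19 and 1.09, Klf2 by 0.58, 0.50 and 0.57 and Klf4 by 0.22, 0.27 and 0.22, whereas Spi1 was higher by 0.52, 0.53 and 0.57.

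Scaling the libraries to a common median ratio removed the shift and changed the split of calls over all genes from 1012 higher and 2316 lower to 1493 and 1380 in TLR4-WT, from 905 and 2568 to 1483 and 1310 in TLR4-K730R, and from 881 and 1916 to 1194 and 1135 in TLR4-K810R. Under this scaling Bhlhe40 fell by 1.31, 1.16 and 1.08 and Klf2 by 0.57, 0.50 and 0.59 in the 3 genotypes and both kept their calls. Klf4 in TLR4-WT and TLR4-K730R (-0.27 and -0.34, adjusted p = 0.176 and 0.0906) and Maf in TLR4-K810R (-0.45, adjusted p = 0.113) lost theirs, and Klf4 in TLR4-K810R stayed uncalled at -0.28. Spi1 gained a call as higher in all 3 genotypes, at 0.57, 0.58 and 0.58 (adjusted p = 0.00975, 0.00907 and 0.00977), close to the threshold. Centring each library on its median instead left Spi1 at 0.53, 0.52 and 0.56, above the threshold (adjusted p = 0.0137, 0.0165 and 0.0117). Nr4a1 in TLR4-K730R was called as higher under both (1.03 and 1.09, adjusted p = 0.00853 and 0.00581). The sign of the Maf difference in TLR4-WT turned, from -0.18 to 0.11.

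**Figure D3:**
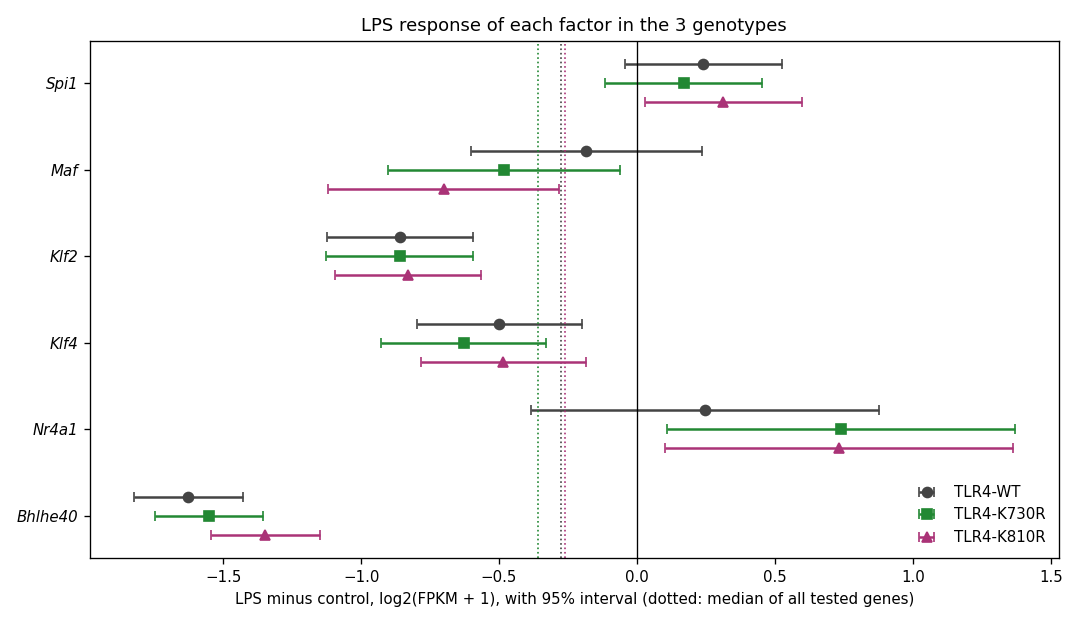
Differences of log2(FPKM + 1) between LPS and control (horizontal axis) for 6 factors (rows) in TLR4-WT, TLR4-K730R and TLR4-K810R, with 95% intervals from limma. Dotted lines are the medians of all tested genes, at -0.28, -0.36 and -0.26, and Bhlhe40 and Klf2 lie to their left in every genotype.

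Ordered by group mean, Bhlhe40 ran from TLR4-WT control at 62.5 FPKM through TLR4-K810R control and TLR4-K730R control, at 55.7 and 55.6 FPKM, to TLR4-K810R LPS at 21.3 FPKM, TLR4-WT LPS at 19.6 FPKM and TLR4-K730R LPS at 18.3 FPKM. In this order only TLR4-WT and TLR4-K810R control, and TLR4-K730R control and TLR4-K810R LPS, had libraries that did not overlap. For Klf2 the one gap between neighbours lay between TLR4-K810R control at 8.47 FPKM and TLR4-K730R LPS at 5.14 FPKM, and for Klf4 between TLR4-WT control at 2.94 FPKM and TLR4-K810R LPS at 1.99 FPKM. For Spi1, Maf and Nr4a1 every neighbouring pair of groups overlapped. The share of all tested genes whose libraries separate between 2 groups was not counted. A lack of overlap, here and for the single factors, is therefore a description and not a result about them. The highest group means were 215 FPKM for Spi1 and 4.29 FPKM for Nr4a1, both in TLR4-K730R LPS, and 14.9 FPKM for Maf in TLR4-K810R control.

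The genotypes were then compared at the same treatment. With limma, 0 of the 6 factors passed the threshold for TLR4-K730R against TLR4-WT in control, where 0.268% of all genes did, and 0 of 6 for TLR4-K810R, where 1.58% did. After LPS the count was 0 of 6 for each mutant, with 0% and 0.134% of all genes called for TLR4-K730R and TLR4-K810R. At an unadjusted p below 0.05, the control comparisons held 0 and 1 of the 6 factors for TLR4-K730R and TLR4-K810R, against 747 and 1366 of the 9707 genes, and those after LPS held 0 and 0, against 746 and 2118. The 1 was Maf in control TLR4-K810R macrophages.

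Maf was 15.5, 13.6 and 15.5 FPKM in those libraries and 6.81, 9.94 and 12.2 FPKM in TLR4-WT control, without overlap. The log2 difference was 0.61 ± 0.197 (SE), with a 95% interval of 0.19 to 1.02 and an adjusted p of 0.130 by limma, and over the alternatives and left-out libraries it ran from 0.40 to 0.78 with adjusted p from 0.0323 to 0.439. In TLR4-K730R control Maf differed from TLR4-WT by 0.35 (-0.06 to 0.77, adjusted p = 0.748), which became 0.15 without TLR4-WT control replicate 1 and 0.53 without TLR4-K730R control replicate 2. Some marker lists of other cells were higher in the same libraries and others were not. The mesothelial and fibroblast list, with 8 of 8 genes listed and no gene without a row in a whole group, summed to 32.0 to 49.1 FPKM in TLR4-WT control, 59.2 to 68.0 FPKM in TLR4-K730R control and 116 to 278 FPKM in TLR4-K810R control. After LPS its sums were 43.2 to 143, 47.7 to 48.3 and 103 to 124 FPKM. The intestinal epithelium list, with 10 of 10 genes listed, summed to 3.04 to 3.28, 13.6 to 48.1 and 24.0 to 79.8 FPKM in the 3 control groups, and 6, 0 and 1 of its genes had no row in all 3 libraries of the group. After LPS its sums were 2.20 to 14.9, 11.2 to 16.3 and 4.21 to 10.97 FPKM. The neutrophil list summed to 33.9 to 47.7, 46.2 to 52.4 and 53.6 to 63.6 FPKM in control. The mast cell list was lower in both mutants, at 5.02 to 6.24, 0.517 to 2.68 and 1.62 to 3.51 FPKM, and the sums of the B cell, T cell and eosinophil lists overlapped between TLR4-WT and TLR4-K810R control. The part of such cells in the Maf values was not tested.

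For the remaining factors the intervals of the mutant differences were narrow or wide according to the spread of each gene. For Bhlhe40 the 95% intervals of the 4 differences all lay between -0.36 and 0.31, for Klf2 between -0.42 and 0.35, for Spi1 between -0.42 and 0.35 and for Klf4 between -0.29 and 0.44. For Nr4a1 they reached from -0.77 to 0.99.

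The size of the LPS response was also compared between each mutant and TLR4-WT. Of the 6 factors 0 passed the test for either mutant (limma), where 0.0412% of all genes did for TLR4-K730R and 0.124% for TLR4-K810R, and at an unadjusted p below 0.05 there were 0 and 1 of the 6 factors, against 681 and 1277 of the 9707 genes. The 1 was Bhlhe40 in TLR4-K810R, whose fall was smaller than in TLR4-WT by 0.28 on the log2 scale (95% interval 0.00 to 0.56, adjusted p = 0.379), with 55.7 ± 2.74 to 21.3 ± 1.37 FPKM against 62.5 ± 3.06 to 19.6 ± 1.17 FPKM (SD, n = 3). For Maf in TLR4-K810R the difference between responses was -0.52 (-1.11 to 0.08) and for Nr4a1 it was 0.49 in both mutants, with intervals that together ran from -0.41 to 1.38. With 1 library left out, Maf ran from -0.69 without TLR4-WT control replicate 3 to -0.31 without TLR4-WT control replicate 1. Nr4a1 in TLR4-K730R ran from 0.26 without its LPS replicate 2 to 0.91 without its LPS replicate 3, and in TLR4-K810R from 0.28 without TLR4-WT LPS replicate 2 to 0.74 without TLR4-WT LPS replicate 3. For Klf2 the responses differed by 0.00 in TLR4-K730R (-0.38 to 0.38) and by 0.03 in TLR4-K810R (-0.35 to 0.41).

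**Figure D4:**
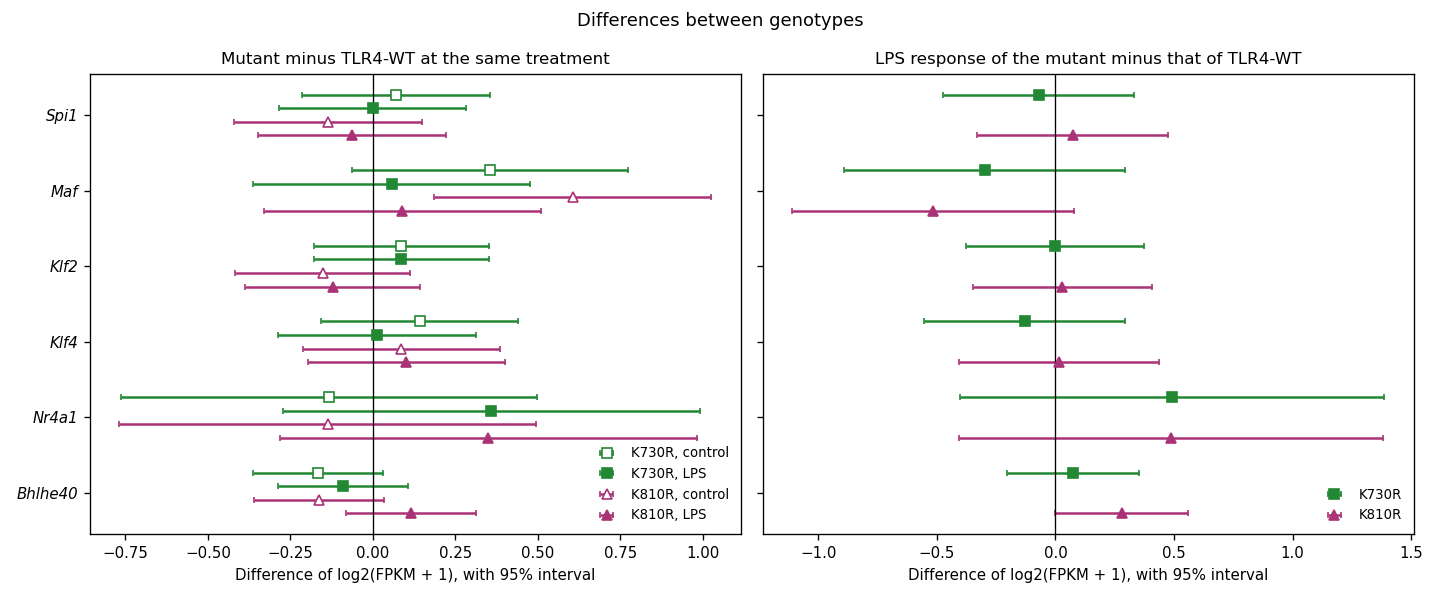
Differences of log2(FPKM + 1) (horizontal axes) with 95% intervals from limma for 6 factors (rows). The left panel plots each mutant minus TLR4-WT in control (open) and LPS (filled) macrophages, where the interval of Maf in TLR4-K810R control, 0.19 to 1.02, excludes 0, and the right panel plots the LPS response of each mutant minus that of TLR4-WT.

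The relatives and the targets of the factors were read from lists chosen with earlier results of these data known, so that the counts are descriptions. Of 29 paralogs of the members 14 were tested, and in TLR4-WT 1 was higher after LPS, 3 were lower and 10 were not called. In TLR4-K730R 1 was higher and 2 were lower, and in TLR4-K810R 3 were higher and 1 was lower. The shares over all genes were 10.4%, 9.32% and 9.08% higher and 23.9%, 26.5% and 19.7% lower in the 3 genotypes. The TLR4-WT median log2 difference of the paralogs was -0.12, beside -0.28 for all genes. Bhlhe41, the closest relative of Bhlhe40, fell from 12.2 ± 1.41 to 6.45 ± 2.13 FPKM in TLR4-WT (adjusted p = 0.00600, limma). In the mutants its log2 difference was -0.77 in TLR4-K730R (adjusted p = 0.0108) and 0.07 in TLR4-K810R (adjusted p = 0.835). Among the Krüppel-like factors, Klf9 fell from 7.14 ± 0.484 to 3.90 ± 0.0740 FPKM (adjusted p = 0.000102), and it was also lower in TLR4-K730R and TLR4-K810R by 1.01 and 1.04 (log2). Klf10 fell from 16.2 ± 1.16 to 11.5 ± 0.414 FPKM (adjusted p = 0.00121), and Klf7 rose from 3.99 ± 0.772 to 7.24 ± 0.835 FPKM (adjusted p = 0.00131), both in TLR4-WT. Klf10 was also called lower in TLR4-K730R (log2 -0.53) and not in TLR4-K810R (-0.16, adjusted p = 0.208, limma). Klf7 was also called higher in TLR4-K810R (0.88) and not in TLR4-K730R (0.51, adjusted p = 0.0134, limma). Under median-ratio scaling the paralogs split into 3 higher and 1 lower in TLR4-WT and TLR4-K810R, and 2 and 1 in TLR4-K730R. In TLR4-WT Klf10 and Bhlhe41 lost their calls under it (log2 -0.15 and -0.56, adjusted p = 0.253 and 0.0455, limma).

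Of 28 other myeloid lineage factors 22 were tested, and 1 was higher and 8 were lower in each genotype, where calls over all genes also held more falls than rises. Their median log2 difference was -0.58, -0.24 and -0.41 in TLR4-WT, TLR4-K730R and TLR4-K810R, beside -0.28, -0.36 and -0.26 for all genes, so that it lay above that of all genes in the K730R mutant and below it in the others. Pparg, the nuclear receptor of lipid handling in alternatively activated macrophages, went from 18.6 ± 1.07 to 0.478 ± 0.396 FPKM (adjusted p = 1.82e-08). Tfeb, a regulator of lysosome genes, went from 39.8 ± 5.04 to 7.50 ± 0.643 FPKM (adjusted p = 1.49e-09) and Batf3, a factor of dendritic cell development, from 5.53 ± 0.294 to 0.636 ± 0.503 FPKM (adjusted p = 8.61e-06). Ets2, an ETS-family factor downstream of MAP kinases, was the 1 that rose, from 10.4 ± 1.35 to 44.2 ± 1.47 FPKM (adjusted p = 5.93e-09). With median-ratio scaling 2 were higher and 7 lower in TLR4-WT. Between genotypes at the same treatment 1 gene of all 6 lists was called, Gata6, a factor of resident peritoneal macrophages that mesothelial cells also express, named here after its values were seen. In control macrophages it was 1.27 ± 0.178 FPKM in TLR4-WT and 6.60 ± 3.72 FPKM in TLR4-K810R (adjusted p = 0.00381, limma), in the libraries whose mesothelial and fibroblast markers were highest, and the part of those cells was not tested. Under both scalings a second gene was called, Hp, the haptoglobin gene of the C/EBP list, also named after its values were seen, which was lower in TLR4-K810R than in TLR4-WT control by 0.71 with median ratios and 0.68 with centring (adjusted p = 0.00630 and 0.00977).

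Of 14 tested PU.1 targets, 2 were higher and 4 lower in TLR4-WT after LPS, with 10.4% of all genes higher and 23.9% lower and a median log2 difference of -0.10, against 3 and 4 for the K730R mutant and 3 and 1 for the K810R mutant. Median-ratio scaling turned the split to 4 higher and 1 lower in TLR4-WT and to 4 and 0 in each mutant. The Fc receptor gene Fcgr1 rose from 50.1 ± 2.36 to 318 ± 91.8 FPKM (adjusted p = 5.24e-07, limma) and the scavenger receptor gene Msr1 from 84.5 ± 10.7 to 308 ± 82.7 FPKM (adjusted p = 1.32e-06). The lysozyme gene Lyz2 fell from 12484 ± 631 to 7031 ± 1140 FPKM (adjusted p = 0.000184), and Cd68, Fcgr3 and Csf1r, of which Csf1r lies outside the naming rule, were lower by 0.76, 0.92 and 0.55 (log2). Of these 4, Lyz2 alone kept its call under that scaling in TLR4-WT. In TLR4-K730R Lyz2 lost its call under that scaling (adjusted p = 0.0613, limma). In TLR4-K810R neither Lyz2 nor Cd68 was called without rescaling (adjusted p = 0.0154 and 0.0966, limma).

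Of 11 tested C/EBP targets, 7 were higher in TLR4-WT, 8 in the K730R mutant and 7 in the K810R mutant. In each of them 0 were lower (limma), although Cebpb itself had no row. Among all genes 10.4%, 9.32% and 9.08% were higher and 23.9%, 26.5% and 19.7% lower in the same order. The median log2 difference of the targets was 3.06 in TLR4-WT, 1.32 for the K730R mutant and 3.15 for the K810R mutant. Median-ratio scaling gave 10, 9 and 9 targets higher and 0 lower. Il1b, the cytokine gene, rose from 2.49 ± 0.734 to 1613 ± 358 FPKM in TLR4-WT (adjusted p = 1.41e-12) and Lcn2, an iron-scavenging acute phase gene, from 1.20 ± 0.131 to 328 ± 52.3 FPKM (adjusted p = 5.17e-12). Csf3 had no row in the TLR4-WT control libraries, which the test took as 0, and was 25.9 to 64.0 FPKM after LPS, so its control level is not known and no fold is given. These genes are also targets of NF-κB, and the list does not separate the 2.

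Of 6 tested targets of c-Maf and Bhlhe40, 2 were higher and 3 lower in TLR4-WT, against 1 and 4 for the K730R mutant and 0 and 4 for the K810R mutant. The shares over all genes were 10.4%, 9.32% and 9.08% higher and 23.9%, 26.5% and 19.7% lower. The TLR4-WT median of the targets was -0.74, beside -0.28 for all genes. The mannose receptor gene Mrc1 fell from 26.9 ± 2.63 to 6.22 ± 0.138 FPKM (adjusted p = 5.08e-09, limma). The complement genes C1qa and C1qb were lower by 0.79 and 0.74 (log2) in TLR4-WT and by 1.33 and 1.48 in TLR4-K810R, and under median-ratio scaling both lost the call in TLR4-WT (adjusted p = 0.0981 and 0.164) and in the K730R mutant (adjusted p = 0.0499 and 0.0279) and kept it in the K810R mutant. That scaling gave splits of 2 higher and 1 lower in TLR4-WT and in the K730R mutant, and 0 and 3 in the K810R mutant. Il10 likewise had no row in TLR4-WT control and was 2.80 to 8.24 FPKM after LPS. In TLR4-K810R its rise was not called without rescaling (adjusted p = 0.0156, limma). Timd4, a receptor gene of resident macrophages, rose from 1.30 ± 0.227 to 4.98 ± 1.71 FPKM in TLR4-WT (adjusted p = 0.00234). Without rescaling its rise was not called in TLR4-K730R or TLR4-K810R (log2 1.06 and 0.73, adjusted p = 0.0105 and 0.0730, limma).

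Of 7 tested targets of KLF2, KLF4 and Nr4a1, 5 were higher and 1 lower in every genotype, with a median of 1.19 in TLR4-WT. Tnfaip3, which encodes the NF-κB inhibitor A20, rose from 27.2 ± 0.868 to 146 ± 3.93 FPKM in TLR4-WT (adjusted p = 2.66e-11, limma), and the glycolysis gene Pfkfb3 from 19.6 ± 7.63 to 94.7 ± 35.0 FPKM (adjusted p = 1.55e-05). F3 and Mcl1, which lie outside the naming rule, were higher by 1.19 and 0.66 (log2), and Txnip was lower by 0.72. Txnip kept its call under median-ratio scaling in TLR4-WT and lost it in both mutants (adjusted p = 0.865 and 0.112), where the split became 5 higher and 0 lower in the K730R mutant and 6 and 0 in the K810R mutant.

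The genes whose levels were most like each factor over the 18 libraries were found by Pearson's r of log2(FPKM + 1) among the 9706 other tested genes. The libraries share 6 groups, so r mostly follows the group means, and it is given as a description. Bhlhe40 was most like Tfeb (r = 0.994) and the keratin gene Krt80 (0.994), and Klf2 was most like the adenylate cyclase gene Adcy3 (0.973) and Bcl2l11 (0.972), which encodes the death factor BIM. Klf4 was most like the transporter gene Abcc3 (0.945) and Fbxl18 (0.940). The likeness was lower for the factors with a small or variable LPS response: Spi1 with Jpt1 (0.877) and Mgat4a (0.836), Nr4a1 with Snf8 (0.870) and the kinase gene Pim3 (0.860), and Maf with the ubiquitin-conjugating enzyme gene Ube2h (0.855) and Ctps2 (0.837).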

How the data were processed

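The 18 RNA-seq libraries (6 groups of 3, grouped by the genotype and treatment labels) were sequenced by a service provider. For every library the authors deposited 80071 to 90401 rows of FPKM, 1 per splicing or exon event of 20 kinds, and the aligner and event program are not given in the sources used here. The submitters' processing notes list the human build hg18, whereas the gene numbers are mouse and 92.0% of rows overlap the named gene on its strand in GRCm38 (GENCODE M21). Read depth is unknown without counts, and no counting interval is given. First-exon and last-exon rows on the strand and span of their gene were summed, which dropped 6.24% of their FPKM, and the larger sum was taken, with a gene that had no row in a library entered as 0. The 9707 genes that reached 1 FPKM in 3 or more libraries were tested on log2(FPKM + 1) with limma 3.58.1 (R 4.3.3), all 6 groups in one fit with an intensity trend, Benjamini-Hochberg adjusted and called below 0.01. The code was tested on simulated data. Python 3.11.15 with pandas 2.3.3 built the gene values.

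The members and lists were chosen with earlier results of these data known. Besides the members, the text names up to 3 genes with the largest rise and 3 with the largest fall called in TLR4-WT after LPS in each list, and the 2 genes most like each member. One gene that this rule names is not reported here. Alternatives were other pseudocounts, filters, scaling, trend, weights, a replicate block, the compared groups alone, other gene values and each library left out. Centring on the library median was chosen after seeing the data.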

Additional observations from a re-analysis of the deposited data

How the results depend on the processing

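The count of called factors after LPS stayed between 2 and 4 in every genotype under all alternatives, and in the genotype comparisons 0 of 780 fits of a factor were called (lowest adjusted p 0.0323, limma). The calls of Bhlhe40 and Klf2 held under every alternative, with log2 differences from -1.67 to -1.08 and from -0.97 to -0.50. Klf4 lost its TLR4-WT call under 6 of 13 alternatives other than left-out libraries and its TLR4-K730R call under 4, and Maf its TLR4-K810R call under 8 of 14. Klf4 in TLR4-K810R gained a call without the variance trend (adjusted p = 0.00763) and with library weights (0.00590), and Nr4a1 in TLR4-K730R gained one as higher with library weights (log2 0.95, adjusted p = 0.00399). The causes were not tested. No call reversed its direction. Of 1134 fits, 57 changed the sign of a difference called in neither fit, the largest being -1.34 for Spi1 from last exons alone in TLR4-K730R. The listed last exons of Spi1 all lie upstream of its first exon at 91096096.

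Replicate numbers did not pair the libraries: over 45 same-numbered pairs the correlation of deviations ran from -0.32 to 0.0993. With a replicate block the LPS comparisons called 2 factors for TLR4-WT, 3 for TLR4-K730R and 2 for TLR4-K810R. A filter at 5 FPKM left Klf4 and Nr4a1 with no value. Without read counts, what depth limits cannot be stated.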
